A study of Mus musculus with 4 samples.

Results

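Of the 21830 genes measured in developing mouse retina, 9 are described here, all nuclear receptors, and they were taken by gene symbol from a fixed list. They are Nr2e1 (Tlx), the COUP-TF receptors Nr2f1, Nr2f2 and Nr2f6, the retinoic acid receptors Rara, Rarb and Rarg, and the retinoid X receptors Rxra and Rxrb. All 9 were found in every library, each on 1 line of the expression tables with the status OK, and 8 of them reached an FPKM (a read count corrected for transcript length and for library size) of at least 1 in all 4 libraries. Rarg was the exception.

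Nuclear receptors are transcription factors that share a zinc finger DNA-binding domain and, in most members, a pocket for a small lipophilic ligand. RAR proteins bind retinoic acid and sit on DNA as heterodimers with RXR, recruiting corepressors without ligand and coactivators with it, whereas Tlx and the COUP-TFs are orphan receptors that act mostly as repressors. In the retina, Tlx is known from proliferating progenitor cells, the COUP-TFs from dorsoventral patterning and amacrine cell formation, and retinoic acid signalling from patterning and photoreceptor differentiation.

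The cells came from retinas of mice, FVB/N by the labels, at postnatal day 1 (P1) and day 4 (P4) that carried a transgene in which a promoter fragment of Hes1 drives destabilized EGFP, and the animals received no treatment. The study's methods name ICR mice and no background for the transgenic line. EGFP-positive cells (pHes1_EPC) and EGFP-negative cells (pHes1_ENC) were separated with a cell sorter after trypsin digestion, and total RNA of each fraction was sequenced as 1 library per age, so 4 libraries hold the data and no group has a replicate. Both fractions carry the transgene, and EGFP marks the cells in which that promoter fragment is active. According to the study's text, EGFP in this line marks nearly all Müller glia after birth and is seen in central and not in peripheral retina.

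The depth, read from the width of the intervals of genes with 1 coding transcript, was equivalent to about 13000000 to 14100000 mapped reads per library. For the 9 receptors the width of the intervals was equivalent to 36 to 2972 reads behind a value. This is no count of reads, since it takes the width as counting error alone and each receptor has 2 to 6 coding transcripts. The 95% interval that the quantification program gave had a half-width of 3.67 to 33.5% of its centre. These intervals do not cover the spread between animals. With no replicate that spread is unknown, and no test of a difference was run. In 4 of the 36 member values (Nr2e1 and Nr2f1 in both pHes1_EPC libraries) the FPKM itself lies above the upper end of its interval. Hes1 itself, whose promoter drives the reporter, had an FPKM of 16.6 in P1 pHes1_ENC and 105 in P1 pHes1_EPC, and 3.59 and 93.5 at P4, so it was higher in pHes1_EPC at both ages. As in any sorted bulk sample, fewer cells of a type and less RNA per cell cannot be told apart.

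The order of the receptors differed between the fractions. Nr2e1 was the highest of the 9 in both pHes1_EPC libraries, at 74.6 FPKM at P1 and 53.1 at P4, with Nr2f1 next at 32.2 and 34.8. Rxrb was the highest in both pHes1_ENC libraries, at 31.6 and 34.1, and there Nr2e1 took place 4 of the 9 at P1 and place 7 at P4. Rarg was the lowest in all 4 libraries. Several neighbours in the order had overlapping intervals: Nr2f6, Nr2e1, Rara and Nr2f2 formed such a chain in P1 pHes1_ENC, Nr2f1, Rara and Rxrb, and also Rxra and Nr2f6, in P1 pHes1_EPC, and Nr2f6, Rarb and Rxra in P4 pHes1_EPC, while in P4 pHes1_ENC it was Nr2f2 and Nr2e1.

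**Figure D1:**
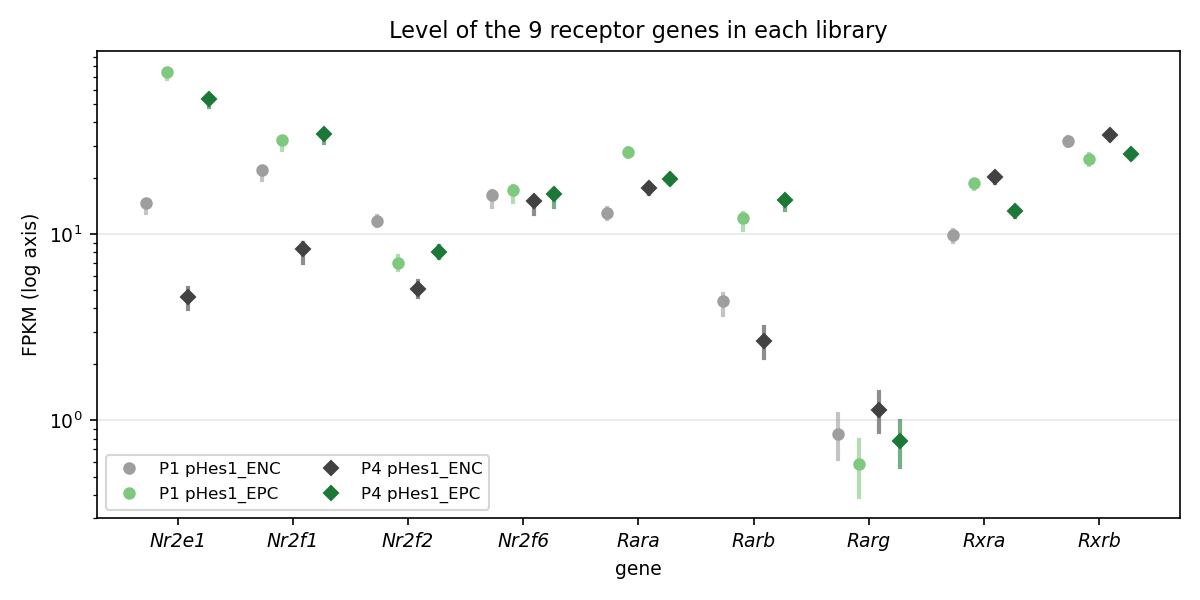
FPKM of each of the 9 receptor genes (horizontal axis) in the 4 libraries on a log axis, with circles for P1, diamonds for P4, grey for pHes1_ENC and green for pHes1_EPC. Vertical bars are the 95% intervals given with the values, and each point is 1 library. Nr2e1 has the widest separation between green and grey, from 4.62 in P4 pHes1_ENC to 74.6 in P1 pHes1_EPC, while Nr2f6 lies between 15.1 and 17.3 in all 4 libraries.

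A difference between fractions is given as the log2(FPKM + 1) of pHes1_EPC minus that of pHes1_ENC, and a gene past 1 on that scale is called more than 2-fold higher. At P1, 3 of the 9 receptors were more than 2-fold higher in pHes1_EPC (Nr2e1, Rara and Rarb), where 6.10% of all genes were. At P4, 3 of the 9 were (Nr2e1, Nr2f1 and Rarb), against 9.85% of all genes. None of the 9 was more than 2-fold lower in pHes1_EPC at either age, where 6.79% of all genes were at P1 and 5.42% at P4. Since the 9 were chosen with earlier results of these data known, these counts are a description only. All genes include those below an FPKM of 1 in both fractions, which cannot pass 2-fold on this scale. With such genes left out, 10.6% of 12557 genes were higher and 11.8% lower at P1. At P4 17.4% of 12390 were higher and 9.56% lower, so these shares are the closer comparison for the receptors. The median difference of the 9 was 0.52 at P1 and 0.16 at P4, beside 0.02 and 0.15 for the 12941 genes that reached an FPKM of 1 in some library (the expressed genes), so at P4 the median receptor was at the level of the expressed genes and the 3 named receptors stood above it.

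**Figure D2:**
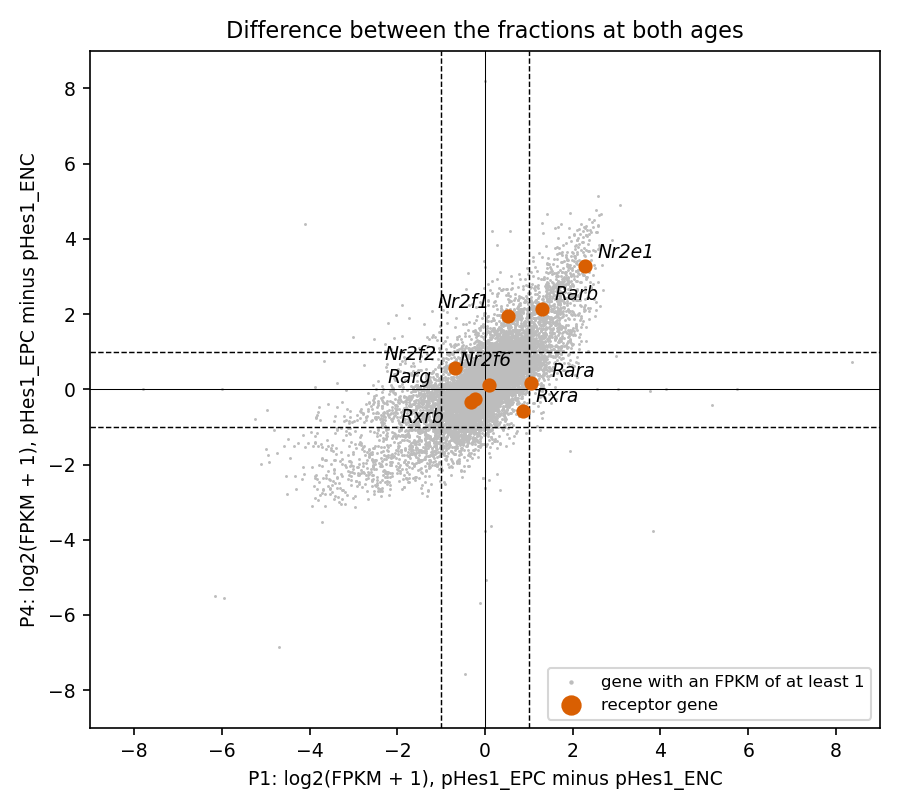
Difference between the fractions at P1 (horizontal axis) and at P4 (vertical axis), each as log2(FPKM + 1) of pHes1_EPC minus pHes1_ENC. Grey points are the 12941 expressed genes, orange points are the 9 receptors, and dashed lines mark the 2-fold limits. Nr2e1 at 2.27 and 3.27 and Rarb at 1.29 and 2.14 lie past the limit at both ages, and Nr2f2 at -0.68 and 0.57 and Rxra at 0.87 and -0.57 lie on opposite sides of 0 at the 2 ages.

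Nr2e1 encodes Tlx, an orphan receptor that keeps neural progenitors dividing and that is needed for a normal retina. The gene lies on chromosome 10 (NCBI37/mm9, 42281777 to 42303394, minus strand), and its longest coding transcript has 9 exons. Its FPKM was 14.7 in pHes1_ENC against 74.6 in pHes1_EPC at P1, then 4.62 in pHes1_ENC against 53.1 in pHes1_EPC at P4. Both pHes1_EPC libraries were thus above both pHes1_ENC libraries, and no intervals overlapped. The difference was 2.27 at P1, a ratio of 5.09 (4.44 to 5.61 from the ends of the intervals), and 3.27 at P4, a ratio of 11.5 (9.42 to 13.3). Ranked from the most enriched in pHes1_EPC, Nr2e1 was number 82 of all 21830 genes at P1 and number 137 at P4. The larger ratio at P4 came with a lower level in both fractions: between P1 and P4 Nr2e1 was lower by a ratio of 0.712 (0.659 to 0.770) in pHes1_EPC and by 0.315 (0.257 to 0.393) in pHes1_ENC.

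The 3 genes whose levels over the 4 libraries ran most nearly parallel to Nr2e1, by the Euclidean distance between log2(FPKM + 1) profiles centred on their means, over 8402 genes that reached an FPKM of 10 in some library, were Yap1 (0.0939), a coactivator of the Hippo pathway, Gas1 (0.171), a cell surface protein that binds hedgehog ligands, and Id1 (0.197), an inhibitor of bHLH transcription factors. Yap1 had an FPKM of 5.93, 30.6, 1.56 and 22.3 in P1 pHes1_ENC, P1 pHes1_EPC, P4 pHes1_ENC and P4 pHes1_EPC. The measure rests on 4 libraries per gene.

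Tlx has been linked to a small set of target genes in neural stem cells and astrocytes, and 8 of them were on a fixed list. Of these, 2 were more than 2-fold higher in pHes1_EPC at P1 and 1 at P4, none was lower, and the median difference was 0.03 and 0.04. Cdkn1a, the cell cycle inhibitor p21 and a reported Tlx target, was at 2.09 in pHes1_ENC and 6.54 in pHes1_EPC at P1 and at 2.44 and 5.28 at P4, so it was higher in the fraction with the higher Nr2e1. Plce1, a phospholipase, was at 0.551 and 3.02 at P1 and 0.329 and 4.38 at P4, and was named after its values were seen.

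Nr2f1 and Nr2f2 (COUP-TFI and COUP-TFII) are close relatives whose coding sequences were identical at 81.2% of the bases of the longer one. Reads of 36 bases can then fit both genes, so the longest stretch of coding sequence that they share exactly is shown, from the DNA-binding domain region, 5′ to 3′ on the coding strand:
Nr2f1 and Nr2f2: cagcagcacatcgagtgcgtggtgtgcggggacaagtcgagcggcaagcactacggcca
It is 59 bases long, begins at base 232 of the Nr2f1 and base 220 of the Nr2f2 coding sequence, and lies at chr13:78337545-78337603 and chr7:77504938-77504996 of NCBI37/mm9, in an exon of each gene, both on the minus strand. It holds 24 of the 29 windows of 36 bases that the transcripts of both genes have in common, which is 0.641% of the windows of Nr2f1 and 0.604% of those of Nr2f2. Shared reads can therefore have moved little of either value. The longest run shared by Rara and Rarb was 17 bases and by Rxra and Rxrb 29 bases, shorter than a read, and Rarb, Rarg, Rxra and Rxrb had no window in common with any other coding gene.

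Nr2f1, on chromosome 13 (78328236 to 78338243, minus strand), was the second receptor of the pHes1_EPC fraction, and 2.17% of its exon bases overlap A830082K12Rik, a lincRNA on the opposite strand. Its FPKM was 22.2 in pHes1_ENC against 32.2 in pHes1_EPC at P1, then 8.32 in pHes1_ENC against 34.8 in pHes1_EPC at P4. The 2 pHes1_EPC libraries had overlapping intervals (a P4 over P1 ratio of 1.08, 0.958 to 1.22), and P4 pHes1_ENC stood well below the others. The difference was 0.52 at P1 (ratio 1.45, 1.25 to 1.65) and 1.94 at P4 (ratio 4.19, 3.44 to 4.93), so the wider gap at P4 lay in the lower pHes1_ENC value. The genes most nearly parallel to Nr2f1 were Lrrn1 (distance 0.0981), a leucine-rich repeat membrane protein, Smarcd3 (0.151), a BAF chromatin remodelling subunit, and Ephb3 (0.160), an ephrin receptor of the ventral retina.

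Nr2f2, on chromosome 7 (77496836 to 77511632, minus strand), was lower than Nr2f1 in every library. Its FPKM was 11.8 in pHes1_ENC against 7.03 in pHes1_EPC at P1, then 5.09 in pHes1_ENC against 8.06 in pHes1_EPC at P4. P1 pHes1_ENC was the highest and P4 pHes1_ENC the lowest, and the pHes1_EPC libraries, whose intervals overlapped, lay between them. The difference was -0.68 at P1 (ratio 0.594, 0.510 to 0.689) and 0.57 at P4 (ratio 1.58, 1.33 to 1.89), neither of them past 2-fold. The ratio of Nr2f1 to Nr2f2 within a library was 4.58 (3.73 to 4.99) and 4.32 (3.54 to 4.67) in pHes1_EPC at P1 and P4, against 1.88 (1.54 to 2.05) and 1.63 (1.26 to 1.94) in pHes1_ENC, so these ranges separated the fractions and overlapped between the ages.

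Markers of amacrine and horizontal cells, neurons in which COUP-TFs are known to be expressed, differed between the pHes1_ENC libraries, mostly in the direction of Nr2f1 and Nr2f2. Of 10 such markers, 8 were more than 2-fold lower in pHes1_EPC at P1 and 5 at P4, and 5 were more than 2-fold lower at P4 than at P1 within pHes1_ENC. Between the fractions Nr2f1 lay on the other side, higher in pHes1_EPC at both ages (0.52 and 1.94). Nr2f2 was lower in pHes1_EPC at P1 (-0.68) and higher at P4 (0.57). The summed FPKM of the 10 markers was 276 in P1 pHes1_ENC and 95.1 in P4 pHes1_ENC, and 36.5 to 37.6 in pHes1_EPC. Tcfap2b, which specifies amacrine cells, went from 109 to 7.93 between the pHes1_ENC libraries and Gad1, the GABA-synthesizing enzyme, from 16.2 to 1.17, while Lhx1, a horizontal cell factor, was at most 0.0571. The list was not uniform: Slc6a9, a glycine transporter, was higher at P4 in pHes1_ENC (19.1, then 62.6) and made up most of the P4 sum, Prox1 was higher in pHes1_EPC at both ages (log2 differences of 0.38 and 0.70) and Gad2 at P4 (0.77). The part of these cells in the Nr2f1 and Nr2f2 values was not tested.

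Nr2f6 (EAR2), on chromosome 8 (73898018 to 73905851, minus strand), is the most distant COUP-TF, with coding identities of 67.5% to Nr2f1 and 66.4% to Nr2f2. Its FPKM was 16.3 in pHes1_ENC against 17.3 in pHes1_EPC at P1, then 15.1 in pHes1_ENC against 16.4 in pHes1_EPC at P4, and all 4 intervals overlapped. The difference was 0.08 at P1 (ratio 1.06, 0.862 to 1.30) and 0.11 at P4 (ratio 1.09, 0.897 to 1.33), and its sign at both ages depended on how the libraries were scaled. These values are uncertain, because 54.4% of the exon bases of Nr2f6 overlap those of Ocel1 on the opposite strand and the cDNA was made without marking the strand. Ocel1, a protein with an occludin-like domain, was listed at 1.46, 1.31, 2.06 and 2.52 FPKM in P1 pHes1_ENC, P1 pHes1_EPC, P4 pHes1_ENC and P4 pHes1_EPC.

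Summed over the 3 COUP-TFs, the FPKM was 50.4 in pHes1_ENC against 56.5 in pHes1_EPC at P1, then 28.5 in pHes1_ENC against 59.3 in pHes1_EPC at P4. Nr2f1 made up 57.0% and 58.7% of that sum in pHes1_EPC, but 44.1% and 29.2% in pHes1_ENC. At P4 the largest share in pHes1_ENC belonged to Nr2f6, with 53.0%.

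COUP-TFs act in the retina with dorsoventral genes, and 11 of these were on a fixed list. At P1 none was past 2-fold in either direction (median 0.18). At P4 6 were more than 2-fold higher in pHes1_EPC (4 or 5 under the other scalings) and none lower (median 1.15). Of all genes 6.10% were higher at P1 and 9.85% at P4. Nr2f1 too was past 2-fold only at P4. A lower P4 value within pHes1_ENC was not particular to these genes. The median age difference there was -0.95 for them, -2.53 for progenitor and cell cycle markers and -1.08 for Müller glia markers. Tbx3, a dorsal T-box factor, had an FPKM of 23.5 in pHes1_ENC and 23.0 in pHes1_EPC at P1, then of 4.43 and 28.5. The ephrins Efnb1 (12.9 and 21.3 at P1, 6.20 and 21.9 at P4) and Efnb2 (24.4 and 48.0, then 6.03 and 64.5) and the receptor Ephb3 (10.7 and 13.7, then 3.68 and 15.6) showed the same low P4 pHes1_ENC value. Vax2, a ventral homeobox factor, was named after its values were seen, and was at 18.3 to 22.1 in all 4 libraries.

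Rara, on chromosome 11 (98799010 to 98836256, plus strand), encodes the broadly expressed retinoic acid receptor and was the most abundant RAR in every library. Its FPKM was 13.0 in pHes1_ENC against 27.8 in pHes1_EPC at P1, then 17.7 in pHes1_ENC against 19.9 in pHes1_EPC at P4. P1 pHes1_EPC stood above the other 3, and the P4 libraries had overlapping intervals. The difference was 1.04 at P1 (ratio 2.13, 1.88 to 2.43), just past the limit, and 0.16 at P4 (ratio 1.13, 0.990 to 1.28), where its sign depended on the scaling. When the libraries were rescaled to the same total the P1 difference was 0.99 and no longer past 2-fold.

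The 3 genes most nearly parallel to Rara were Ubl4 (distance 0.10), a ubiquitin-like protein of the pathway that inserts tail-anchored proteins, Hspa14 (0.112), a ribosome-associated chaperone, and 5730408K05Rik (0.143). Ubl4 was at 27.1, 53.3, 33.0 and 39.2 FPKM in P1 pHes1_ENC, P1 pHes1_EPC, P4 pHes1_ENC and P4 pHes1_EPC.

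Rarb, on chromosome 14 (17263354 to 17407724, minus strand), is both a retinoic acid receptor and the textbook case of a gene that retinoic acid induces, through a retinoic acid response element in its own promoter. That element is 2 copies of a half-site in the same direction, and the promoter is printed here to show it, with the repeated bases in capitals:
Rarb promoter: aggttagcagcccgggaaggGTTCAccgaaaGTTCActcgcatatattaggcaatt
The stretch is chr14:17408007-17408062 of NCBI37/mm9, given in the direction of the gene, and was taken from the RefSeq promoter table of GRCm38.p6 and found by exact match, once on the chromosome. The repeat spans 52 to 37 bases upstream of the RefSeq start. Between the stretch and the start of the gene line in the expression tables lie 282 bases.

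The search was for GTTCA or GGTCA followed, after 6 bases, by GTTCA or GGTCA, on either strand, in the promoter window around each RefSeq start. It matched 81 of 32851 promoters (0.247%), and 25 (0.0761%) when GTTCA alone was allowed. Of the 16 promoters of the 9 receptors only that of Rarb matched. The same bases at 3 bases apart were in 0.399% of all promoters and at 2 bases apart in 0.402%, and in none of the 16. A match is a description of the letters, and binding was not measured here.

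The FPKM of Rarb was 4.39 in pHes1_ENC against 12.2 in pHes1_EPC at P1, then 2.69 in pHes1_ENC against 15.3 in pHes1_EPC at P4. Both pHes1_EPC libraries lay above both pHes1_ENC libraries, with no overlap of intervals. The difference was 1.29 at P1 (ratio 2.77, 2.23 to 3.52) and 2.14 at P4 (ratio 5.69, 4.25 to 7.31). With age Rarb was higher in pHes1_EPC by a ratio of 1.26 (1.04 to 1.5) and lower in pHes1_ENC by a ratio of 0.613 (0.457 to 0.861), though the former was 0.00 on the log2 scale after rescaling to the same total. The genes most nearly parallel to it were Tulp3 (distance 0.0552), an adaptor of ciliary transport, Dab1 (0.0986), the adaptor of reelin signalling, and 1110012D08Rik (0.124). Tulp3 was at 16.4, 42.8, 11.4 and 51.2 FPKM in P1 pHes1_ENC, P1 pHes1_EPC, P4 pHes1_ENC and P4 pHes1_EPC.

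Rarg, on chromosome 15 (102065371 to 102087914, minus strand), encodes the RAR known best from skin and cartilage. Its FPKM was 0.851 in pHes1_ENC against 0.586 in pHes1_EPC at P1, then 1.14 in pHes1_ENC against 0.776 in pHes1_EPC at P4. The width of the intervals was equivalent to 36 to 69 reads each. The intervals overlapped within each comparison, and the ratio of pHes1_EPC to pHes1_ENC was 0.689 (0.360 to 1.26) at P1 and 0.678 (0.394 to 1.14) at P4, so a difference was not detectable at this depth.

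Summed over the 3 RARs, the FPKM was 18.2 in pHes1_ENC against 40.5 in pHes1_EPC at P1, then 21.5 in pHes1_ENC against 36 in pHes1_EPC at P4. The sum was higher in pHes1_EPC at both ages, but its make-up differed. At P4 Rarb gave 42.5% of it in pHes1_EPC against 12.5% in pHes1_ENC. The ratio of Rara to Rarb was 2.28 (2.02 to 2.76) in P1 pHes1_EPC and 1.30 (1.17 to 1.57) in P4 pHes1_EPC, and 2.97 (2.53 to 3.78) and 6.57 (5.21 to 8.64) in pHes1_ENC, so it moved in opposite directions with age in the fractions.

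**Figure D3:**
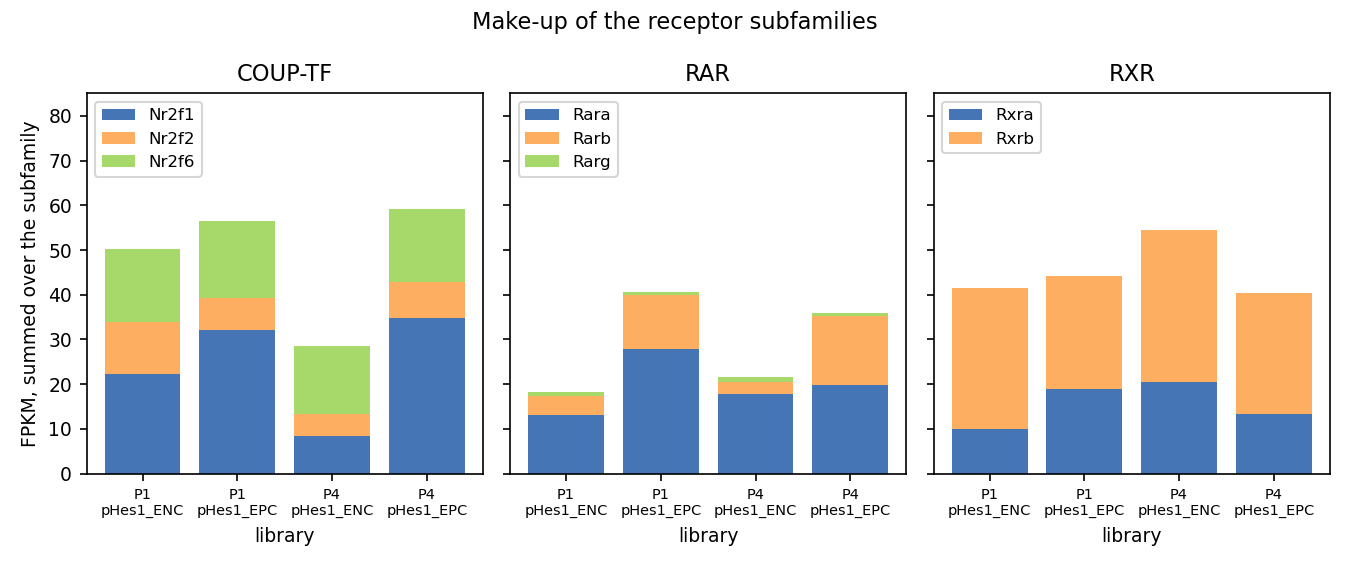
FPKM summed over the COUP-TF, RAR and RXR genes (vertical axis) in each of the 4 libraries (horizontal axis), with 1 colour per gene and no error bars. The RAR sum is 40.5 and 36 in pHes1_EPC and 18.2 and 21.5 in pHes1_ENC, the COUP-TF sum is lowest in P4 pHes1_ENC at 28.5, and the RXR sum lies between 40.3 and 54.5.

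Rxra, on chromosome 2 (27532721 to 27618839, plus strand), encodes a heterodimer partner of RAR and of other receptors. Its FPKM was 9.87 in pHes1_ENC against 18.9 in pHes1_EPC at P1, then 20.4 in pHes1_ENC against 13.4 in pHes1_EPC at P4. The higher fraction was pHes1_EPC at P1 and pHes1_ENC at P4, and the intervals did not overlap at either age. The difference was 0.87 at P1 (ratio 1.92, 1.67 to 2.16) and -0.57 at P4 (ratio 0.660, 0.589 to 0.741), short of 2-fold both times. Within pHes1_ENC it was higher at P4 by 0.98, the largest rise with age of the 9, and within pHes1_EPC its age difference was -0.46.

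Rxrb, on chromosome 17 (34168757 to 34175348, plus strand), was the steadiest of the abundant members apart from Nr2f6. Its FPKM was 31.6 in pHes1_ENC against 25.3 in pHes1_EPC at P1, then 34.1 in pHes1_ENC against 26.9 in pHes1_EPC at P4. Both pHes1_ENC libraries were above both pHes1_EPC libraries, with a P1 ratio of 0.801 (0.710 to 0.899) and a P4 ratio of 0.788 (0.699 to 0.882), and the intervals of the 2 ages overlapped within each fraction. Rxrb was above Rxra in every library, by 3.20 times (2.84 to 3.68) in P1 pHes1_ENC, 1.34 (1.21 to 1.53) in P1 pHes1_EPC, 1.68 (1.53 to 1.90) in P4 pHes1_ENC and 2.00 (1.8 to 2.30) in P4 pHes1_EPC. The sum of both, 41.5, 44.2, 54.5 and 40.3 in the same order, varied less than either the RAR or the COUP-TF sum.

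The third RXR gene, Rxrg, was no member of the list. Its FPKM was 7.14 in pHes1_ENC against 0.994 in pHes1_EPC at P1, then 13.3 in pHes1_ENC against 3.03 in pHes1_EPC at P4, with differences of -2.03 and -1.83. Rxrg is known from cone photoreceptors, and 4 of 6 cone markers were more than 2-fold lower in pHes1_EPC at P1 and 3 at P4. The part of cones in the Rxrg value was not tested.

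Between P1 and P4 none of the 9 receptors was past 2-fold in pHes1_EPC, where 4.17% of all genes were higher at P4 and 2.57% lower. In pHes1_ENC, 3 of the 9 were more than 2-fold lower at P4 (Nr2e1, Nr2f1 and Nr2f2), where 5.94% of all genes were. None was more than 2-fold higher on the log2(FPKM + 1) scale, where 2.77% were. Rxra was just short of it (0.98), though its FPKM ratio was 2.06. Here too the shares of all genes include genes too low to pass 2-fold. The differences in pHes1_ENC were -1.48 for Nr2e1, -1.32 for Nr2f1 and -1.07 for Nr2f2, and the same genes had -0.48, 0.11 and 0.17 in pHes1_EPC. The median over the 9 was 0.08 in pHes1_EPC and -0.11 in pHes1_ENC, beside 0.17 and -0.01 for the expressed genes. These age comparisons use the same 4 libraries as the comparisons of fractions, so they are not separate evidence.

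Retinoic acid is made from retinol by Rdh10 and the Aldh1a enzymes, carried by Crabp proteins and broken down by Cyp26 enzymes. Of 15 such genes, 6 were more than 2-fold higher and 2 lower in pHes1_EPC at P1, and 4 higher and 1 lower at P4, with median differences of 0.52 and 0.33. Aldh1a1, a retinaldehyde dehydrogenase, had an FPKM of 5.93 in pHes1_ENC against 31.2 in pHes1_EPC at P1, then 3.36 in pHes1_ENC against 45.0 in pHes1_EPC at P4. Aldh1a1 ran in the direction of Rarb at both ages and in both fractions with age. The list did not do so as a whole: within pHes1_EPC 2 of the 15 genes were more than 2-fold higher at P4 and 4 lower. Among the lower were Aldh1a3 (10.3, then 0.722) and Crabp2 (18.0, then 3.26), both named after their values were seen. Crabp2 was higher in pHes1_EPC at both ages (1.74 and 1.61). Crabp1, a binding protein of retinoic acid itself, was lower in pHes1_EPC, at 267 in pHes1_ENC and 7.64 in pHes1_EPC at P1 and at 30.5 and 8.36 at P4, a difference of -4.95 at P1 and -1.75 at P4. Amacrine cells are a known site of Crabp1, and 8 of the 10 amacrine and horizontal markers were, like it, more than 2-fold lower in pHes1_EPC at P1 and 5 at P4, with the exceptions given above. Their part was not tested.

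Cyp26a1, the main retinoic acid hydroxylase, is also a gene that retinoic acid induces, and had the largest differences toward pHes1_EPC of the list. Its promoter holds the same kind of repeat as that of Rarb, here on the strand opposite the gene, and is printed for comparison with the repeated bases in capitals:
Cyp26a1 promoter: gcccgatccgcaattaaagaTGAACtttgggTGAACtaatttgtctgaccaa
The stretch is chr19:37772246-37772297 of NCBI37/mm9, in the direction of the gene, ends just before the first base of the gene line, and the repeat spans 32 to 17 bases upstream of the RefSeq start. The FPKM of Cyp26a1 was 5.76 in pHes1_ENC against 49.1 in pHes1_EPC at P1, then 0.274 in pHes1_ENC against 18.9 in pHes1_EPC at P4. The difference was 2.89 at P1 (ratio 8.52, 6.62 to 10.3) and 3.96 at P4 (ratio 69.0, 37.6 to 145). Like Rarb, Cyp26a1 was higher in pHes1_EPC at both ages, but within pHes1_EPC it was lower at P4 (ratio 0.385, 0.333 to 0.457), where Rarb was higher.

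Of 11 genes known to respond to retinoic acid, Cyp26a1 among them, 4 were more than 2-fold higher and 1 lower in pHes1_EPC at P1, and 4 higher and 2 lower at P4, with medians of 0.03 and 0.00. Tgm2, tissue transglutaminase, was at 1.32, 8.45, 0.235 and 3.50 in P1 pHes1_ENC, P1 pHes1_EPC, P4 pHes1_ENC and P4 pHes1_EPC. Meis2, a homeobox factor, was lower in pHes1_EPC, at 71.0, 4.51, 48.0 and 12.8. The response genes thus lay on both sides.

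**Figure D4:**
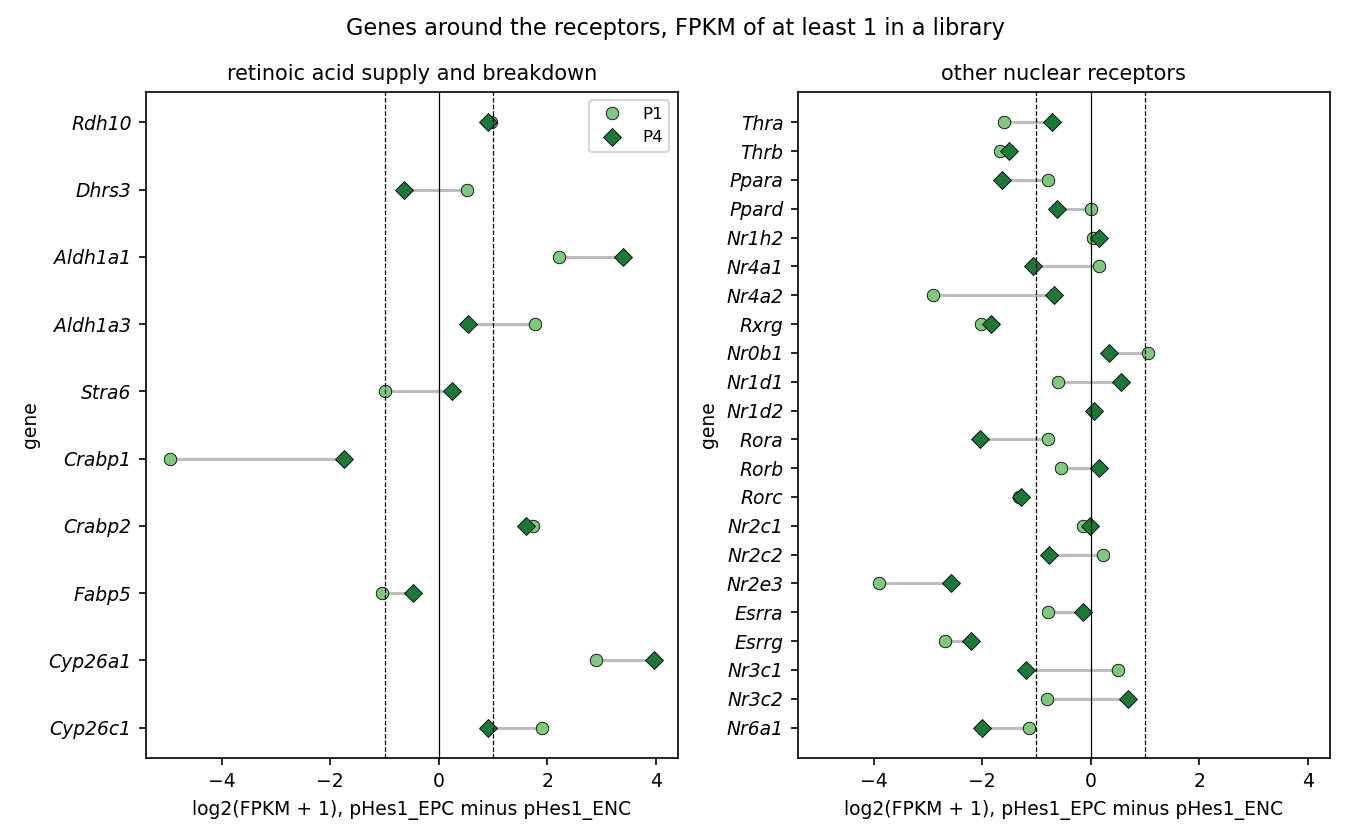
Difference between the fractions, log2(FPKM + 1) of pHes1_EPC minus pHes1_ENC (horizontal axis), at P1 (circles) and P4 (diamonds) for genes (vertical axis) of retinoic acid supply and breakdown on the left and the nuclear receptors outside the 9 on the right, those that reached an FPKM of 1 in some library. Dashed lines mark the 2-fold limits. Cyp26a1 (2.89 and 3.96) and Aldh1a1 (2.22 and 3.40) lie to the right at both ages and Crabp1 (-4.95 and -1.75) to the left, and of the receptors on the right 1 gene at P1 and none at P4 is past the upper limit.

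The 9 receptors were chosen with earlier results of these data known, so setting them beside other receptors is a description only. Outside the list were 39 nuclear receptors, Rxrg among them, and 22 of them reached an FPKM of 1 in some library. The rest could not pass 2-fold on the log2(FPKM + 1) scale but are counted in the medians. Of all 21830 genes, 6.10% were higher and 6.79% lower at P1, and 9.85% and 5.42% at P4. At P1, 1 of the 39 was more than 2-fold higher in pHes1_EPC and 8 were lower. At P4 none was higher and 10 were lower, with medians of -0.07 at P1 and -0.08 at P4. The 1 higher gene, named after its values were seen, was Nr0b1 (DAX1), at 0.297 and 1.68 at P1. Among those lower were Nr2e3, the rod receptor and closest relative of Nr2e1, at 148 FPKM in pHes1_ENC and 8.98 in pHes1_EPC at P1, then 984 and 165, and Esrrg, at 9.49 and 0.641 and then 10.8 and 1.56. The thyroid hormone receptors Thra (94.4 and 30.7, then 60.9 and 36.8) and Thrb (7.77 and 1.74, then 8.87 and 2.47) were on the same side, as were Nr4a2 (10.6 and 0.541, then 1.18 and 0.369), Rora (5.98 and 3.07, then 7.36 and 1.01) and Nr6a1 (3.31 and 0.975, then 8.58 and 1.40).

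Against all 48 nuclear receptors, Nr2e1 was the most abundant in P1 pHes1_EPC and held place 3 in P4 pHes1_EPC, after Nr2e3 and Rorb (79.6, named after its values were seen), but it held only place 11 in P1 pHes1_ENC and place 25 in P4 pHes1_ENC. Nr2f1 held places 4 and 6 in pHes1_EPC and places 8 and 19 in pHes1_ENC. Rxrb took place 5 in both pHes1_ENC libraries. Rod markers moved with Nr2e3: 6 of 7 were more than 2-fold lower in pHes1_EPC at P1 and all 7 at P4, with a summed FPKM of 294 in pHes1_ENC against 21.6 in pHes1_EPC at P1, then 2221 against 476, and their part in the place of the other receptors was not tested.

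RARs and COUP-TFs act through shared cofactors. Of 17 corepressors, none was more than 2-fold higher in pHes1_EPC and 2 were lower at P1 and 4 at P4, with medians of -0.39 and -0.59. Kdm1a, a histone demethylase that Tlx recruits, was at 77.4 in pHes1_ENC and 36.7 in pHes1_EPC at P1 and then 84.0 and 60.6, and Atn1, atrophin 1 of a family that binds Tlx, at 43.8 and 32.2 and then 42.9 and 19.7, so both were lower in the fraction with the higher Nr2e1. Nrip1, which binds liganded receptors, was at 14.5 and 12 and then 20.2 and 5.91.

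Of 11 coactivators none was past 2-fold at P1 and 3 were lower in pHes1_EPC at P4, with medians of -0.36 and -0.59. These were Ncoa2 (39.2 in pHes1_ENC and 11.5 in pHes1_EPC at P4), Crebbp (11.8 and 5.35) and Ep300 (27.0 and 12.1), the last 2 being histone acetyltransferases. Members of both lists lay on either side of 0 at P4, among them Hdac3 (0.44) and Prmt1 (0.41), named after their values were seen.

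The make-up of the fractions was read from markers of other cell types. Of 10 Müller glia markers 9 were more than 2-fold higher in pHes1_EPC at both ages, with a summed FPKM of 345 in pHes1_ENC against 1336 in pHes1_EPC at P1, then 143 against 1979. Hes1 is among the 9, and since its promoter fragment drives the sorted EGFP, it is not separate evidence of the cell type. Müller glia and progenitor markers were high in the same fraction, so these cells were not told apart here. Of 10 progenitor and cell cycle markers 9 were higher at P1 and all 10 at P4. Their sums were 764 against 2699, then 165 against 1372. Nr2e1, Nr2f1 and Rarb, each more than 2-fold higher in pHes1_EPC at P4, were on the side of both sets at that age. At P1 Nr2f1 was short of 2-fold (0.52). Within pHes1_ENC, 9 of the 10 progenitor and cell cycle markers were more than 2-fold lower at P4, as were Nr2e1, Nr2f1 and Nr2f2. Within pHes1_EPC, 6 of the 10 were more than 2-fold lower at P4 (Mki67, a proliferation marker named after its values were seen, from 133 to 40.0), where no receptor was. The median of the 10 there was -1.24, beside -0.48 for Nr2e1, 0.11 for Nr2f1 and 0.31 for Rarb.

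Astrocytes also express Nr2e1. Of 5 astrocyte markers, Pax2 and Gfap were at most 1.03 and 1.21 in any library. The sum of the 5 was 3.89 in pHes1_ENC against 4.98 in pHes1_EPC at P1, then 7.48 against 15.2, most of it Pdgfra. Pdgfra was at 2.66 and 3.78 at P1, then 4.11 and 11.1, more than 2-fold higher in pHes1_EPC at P4. Aldh1l1 was also higher there at P4 (0.96, short of 2-fold), while Pax2 (-0.05), Gfap (-0.25) and S100b (0.10) differed little. The endothelial markers Pecam1, Cdh5 and Tek were at most 0.142, and Flt1 at most 1.41, while Kdr, which retinal progenitors also express, was at 46.9 and 209 and then 12 and 189, and Cldn5 at 16.3 and 3.49 and then 2.59 and 4.06. Of 5 pericyte and mesenchyme markers the summed FPKM was 0.299 to 3.10. Pigment epithelium markers summed to 24.8 in P4 pHes1_EPC against 1.64 to 6.47 in the others, of which Dct gave 15.0, and erythroid markers to 185 and 502 in pHes1_ENC against 0.568 and 6.65 in pHes1_EPC, at P1 and P4. Microglia markers summed to 2.07 to 10.2, bipolar markers to 5.51 to 13.3, and ganglion cell markers to 5.90 to 29.3. The part of these cells in the receptor values was not tested.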

How the data were processed

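The authors extracted total RNA from sorted cells, made cDNA with random primers, sequenced single-end reads of 36 bases, aligned them to NCBI37/mm9 with TopHat 2.0.8b (coverage search, up to 50 positions a read) and deposited gene FPKM from Cufflinks 2.1.1 with a 95% interval and a status. The annotation that Cufflinks used is not given in the sources used here. The submitters' processing notes also name bcl2fastq 1.8.4. No read counts were used, so library depth was only read from the width of the intervals.

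Each table held 23021 lines. Lines of small RNAs, 794 by symbol, were left out, and a symbol with several lines was represented by its highest FPKM, which left 21830 genes. Differences are on the log2(FPKM + 1) scale with a pseudocount of 1, which understates the change of low genes, and ratios are of FPKM, with ranges from the ends of the intervals. A gene was called past 2-fold beyond 1 on the log2 scale. With 1 library per group no test was run. The annotation used for locations and shared windows was GENCODE vM1 on NCBI37. Promoters are from RefSeq (GRCm38.p6), and all 9 genes matched. Identity was computed on coding sequences by global alignment, in place of the proteins planned. The threshold step was run on simulated data, with planted changes well past 2-fold in the more abundant genes. It therefore does not bear on changes near 2-fold or on low genes. Python 3.11.15, numpy 2.4.6, pandas 2.3.3, Biopython 1.88 and matplotlib 3.10.9 were used.

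The 9 genes and the gene lists were chosen with earlier results of these data known. The text names all 9 genes, up to 4 genes per list that differ more than 2-fold at either age and reach an FPKM of 5, and the 3 nearest profiles of each receptor past 2-fold; any other gene is said to be named after its values were seen, or is a cell type marker given beside a result. Some genes of the lists are counted in them but not reported here by name. Alternatives were a pseudocount of 0.1, a filter at an FPKM of 1, 3 other scalings, ratios without pseudocount, separated intervals, summed lines and small RNAs kept.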

Additional observations from a re-analysis of the deposited data

Results flagged for a closer look

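Nr2f2 differed between the fractions in opposite directions at the 2 ages, with a log2 difference of pHes1_EPC minus pHes1_ENC of -0.68 at P1 and 0.57 at P4. Rxra did so too, with 0.87 at P1 and -0.57 at P4. Between P1 and P4 the direction was opposite in the 2 fractions for 3 receptors: Rara was at -0.46 in pHes1_EPC and 0.41 in pHes1_ENC, Rarb at 0.31 and -0.55, and Rxra at -0.46 and 0.98. Each of these rests on 1 library per group, the intervals of the libraries compared did not overlap, and the difference between the 2 effects was not tested. The rise of Rarb in pHes1_EPC depended on the scaling. It was 0.00 after rescaling to the same total, 0.14 under median-of-ratios scaling and 0.18 under quantile normalization. The age and fraction contrasts of Rxra use the same 4 libraries. No group had enough libraries to look for outlying samples.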

How the results depend on the processing

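The 3 receptors more than 2-fold higher in pHes1_EPC at P4 were the same under all alternatives recomputed for them. At P1 the number was 2 after rescaling to the same total, which left out Rara (0.99), and 3 under the others. Within pHes1_ENC the number past 2-fold between the ages was 2 under quantile normalization, which left out Nr2f2 (-0.96), and 4 with a pseudocount of 0.1 or without one, which added Rxra. Of 72 recomputed single differences 60 stayed within the range of their intervals and 12 moved outside it, and 6 changed sign, all of differences short of 2-fold: Nr2f6 at P1 (-0.01) and Rara at P4 (-0.12) after rescaling to the same total, Nr2f6 at P4 under all 3 scalings (-0.17, -0.08 and 0.00, the last just below 0) and Rara at P4 under median-of-ratios scaling (-0.03). Those 72 were all differences between the fractions and not between the ages. Rescaling to the same total moved the P4 median of expressed genes from 0.15 to -0.10 and the age median in pHes1_EPC from 0.17 to -0.11.

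Over all genes the numbers moved more. Of the calls at P4, 64.5% were higher in pHes1_EPC as reported, 48.1% after rescaling to the same total, 53.1% under median-of-ratios scaling and 49.8% under quantile normalization. With a pseudocount of 0.1 the numbers higher and lower were 2057 and 2470 at P1 (1331 and 1483 as reported) and 1963 lower at P4 (1184 as reported), without a pseudocount 3008 and 3816 at P1 and 4390 and 3182 at P4 (2150 higher as reported), and 2170 were lower at P4 after rescaling to the same total. At P4 the other scalings gave 4 or 5 dorsoventral genes past 2-fold higher in pHes1_EPC in place of 6, 4 or 5 coactivators lower in place of 3, and 4 or 5 cone markers lower in place of 3. At P1, rescaling to the same total gave 1 dorsoventral gene higher in place of 0 and 2 response genes of retinoic acid lower in place of 1. It also gave more of the receptors outside the list as lower. Of 14 that pair with RXR these were 5 at P1 and 6 at P4, in place of 4 and 4. Of the 25 others these were 6 and 8, in place of 4 and 6, while quantile normalization gave 3 of the 25 at P1. No analysis paired by replicate number was made, since the labels give none, and a fit of fraction with age as a block, which would leave 1 residual degree of freedom, was not run. With 1 library per group none was left out. Depth limits Rarg most, whose intervals had a half-width of up to 33.5% of their centre.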
